A study of Homo sapiens with 32 samples.

Results

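CGA, FILIP1L, PRDM8, BASP1 and PCDH17 are 5 of the 60107 genes counted in 32 libraries from HEK293T cells (a transformed line of embryonic kidney origin) and U2OS cells (an osteosarcoma line). The genes were chosen on earlier results of these data, by their high counts in libraries 10, 12, 14 and 16 set against libraries 11, 13, 15 and 17, so their values in that contrast are described here with no test. All 5 matched a row of the table by gene identifier. The study asked how camptothecin (CPT), a poison of topoisomerase I, and loss of the kinase ATM change protein aggregation, and profiled transcripts alongside. RNA was sequenced from the 3′ end of each transcript with the QuantSeq method, so that a count stands for a tagged transcript end.

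CGA encodes the alpha subunit that chorionic gonadotropin, luteinizing hormone, follicle-stimulating hormone and thyrotropin have in common, and is known from pituitary and placenta. FILIP1L is named for its likeness to a filamin A interacting protein, PRDM8 is a PR domain zinc finger repressor that works with BHLHE22 in developing neurons, BASP1 is a membrane-attached protein of growth cones, and PCDH17 is a protocadherin that joins cells through homophilic contacts and is known from axons. They belong to separate families and share no known complex.

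The labels give HEK293T DMSO (libraries 3, 5, 7, 17 and 22 to 25) and HEK293T CPT (2, 4, 6 and 8), both with 24 h of treatment and 48 h of recovery. They give U2OS WT (1, 11, 13 and 15) and U2OS ATM KO (10, 12, 14 and 16), both grown for 72 h, and HEK293T ATM KO (18 to 21), U2OS CPT (26 to 29) and U2OS DMSO (30 to 33). The ATM knockouts of the study are CRISPR/Cas9 clones, and the study describes HEK293T transcripts for an ATM inhibitor and not for a knockout, so libraries 18 to 21 are called by their label only. RNA came from the cells of the study's proteomics, in which U2OS received a higher dose of CPT than HEK293T; the labels give no dose. Each comparison of the study rests on 4 biological repeats.

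The label and the transcript profile named different cell lines in 14 libraries. Each library was correlated with the mean of libraries 22 to 25 (HEK293T DMSO) and of 30 to 33 (U2OS DMSO), over 15404 genes. Of the 16 libraries with a HEK293T profile, 7 carried a U2OS label, and of the 16 with a U2OS profile, 7 carried a HEK293T label. Summed U2OS markers lay between 186 and 318 CPM (a gene's counts scaled to 1000000 counts on all genes) in the first 16 libraries and between 1690 and 2554 CPM in the others, and 9 of 10 such markers were higher in every library of U2OS profile. Of 8 HEK293T markers, 5 were higher in every library of HEK293T profile, 2 overlapped and SALL4 was higher in the U2OS profile. Libraries 10 to 16 had a HEK293T profile under U2OS labels, and libraries 2 to 8 a U2OS profile under HEK293T labels. No condition is therefore drawn from libraries 1 to 17, which are named by number. Libraries 17 and 1 carry another label than the other 3 of their sets, so values are also given without them.

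**Figure D1:**
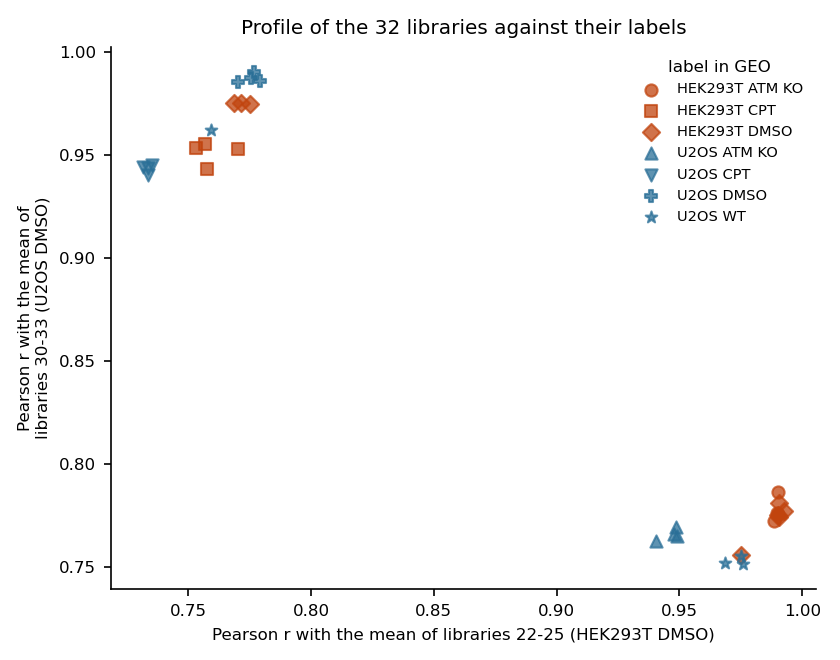
Pearson correlation of log2(CPM + 1) of each library with the mean HEK293T DMSO library (22 to 25, x axis) and the mean U2OS DMSO library (30 to 33, y axis), with 1 point per library, its shape and color giving its label. The libraries form 2 clouds of 16, and each cloud holds 7 points with the color of the other line.

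The promoters are shown because the 5 genes were high in the same 4 libraries. Windows of 300 bases, from 250 before to 50 after each start annotated by RefSeq on GRCh38.p14, were at hand for all 5 genes, with a pair of windows each for FILIP1L and PRDM8. In the 3 windows below, capitals mark matches to the cAMP response element TGACGTCA, to its 5-base core TGACG on either strand, and to the TATA box TATAAA. They are chr6:87095057-87095356 (minus strand) for CGA, chr3:99876124-99876423 (minus strand) for FILIP1L and chr4:80197253-80197552 (plus strand) for PRDM8.
CGA: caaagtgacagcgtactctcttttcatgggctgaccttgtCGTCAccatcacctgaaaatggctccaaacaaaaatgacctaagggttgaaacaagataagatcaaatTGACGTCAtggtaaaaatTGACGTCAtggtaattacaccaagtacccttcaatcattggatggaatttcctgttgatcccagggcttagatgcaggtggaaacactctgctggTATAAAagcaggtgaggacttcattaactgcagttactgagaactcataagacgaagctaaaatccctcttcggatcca
FILIP1L: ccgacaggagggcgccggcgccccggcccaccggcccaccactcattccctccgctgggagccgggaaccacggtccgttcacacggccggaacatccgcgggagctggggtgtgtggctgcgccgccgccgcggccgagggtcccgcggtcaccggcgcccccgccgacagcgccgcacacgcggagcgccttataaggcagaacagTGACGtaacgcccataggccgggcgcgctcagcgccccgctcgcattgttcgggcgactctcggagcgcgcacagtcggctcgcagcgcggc
PRDM8: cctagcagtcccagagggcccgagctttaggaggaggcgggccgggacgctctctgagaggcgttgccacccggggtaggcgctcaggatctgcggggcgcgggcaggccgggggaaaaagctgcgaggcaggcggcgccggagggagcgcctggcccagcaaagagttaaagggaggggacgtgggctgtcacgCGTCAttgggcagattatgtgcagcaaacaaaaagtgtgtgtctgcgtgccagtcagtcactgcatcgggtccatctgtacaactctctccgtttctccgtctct

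The CGA window held the whole element in tandem, with first bases at positions -142 and -124 from the start, and a TATA box at -29. Of 35116 windows of this length in the table, 1.85% held the element at least once and 0.0598% held it 2 or more times. The core, which overlaps each whole element on both strands, also lay at -210 in the CGA window, at -42 in that of FILIP1L and at -55 in that of PRDM8, and 24.6% of all windows held it. The other FILIP1L and PRDM8 windows and those of BASP1 (chr5:17216573-17216872) and PCDH17 (chr13:57631494-57631793) held neither element nor core. A GC box, GGGCGG on either strand, was found in the BASP1 window at -11 and in 45.0% of all windows, and no window of the 5 genes held an AP-1 site, TGACTCA, or an amino acid response element core, TGATGNAA. The E-box letters CANNTG stood in 68.7% of all windows and are not drawn. GC content was 42.3% for CGA and 75% for the FILIP1L window shown.

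**Figure D2:**
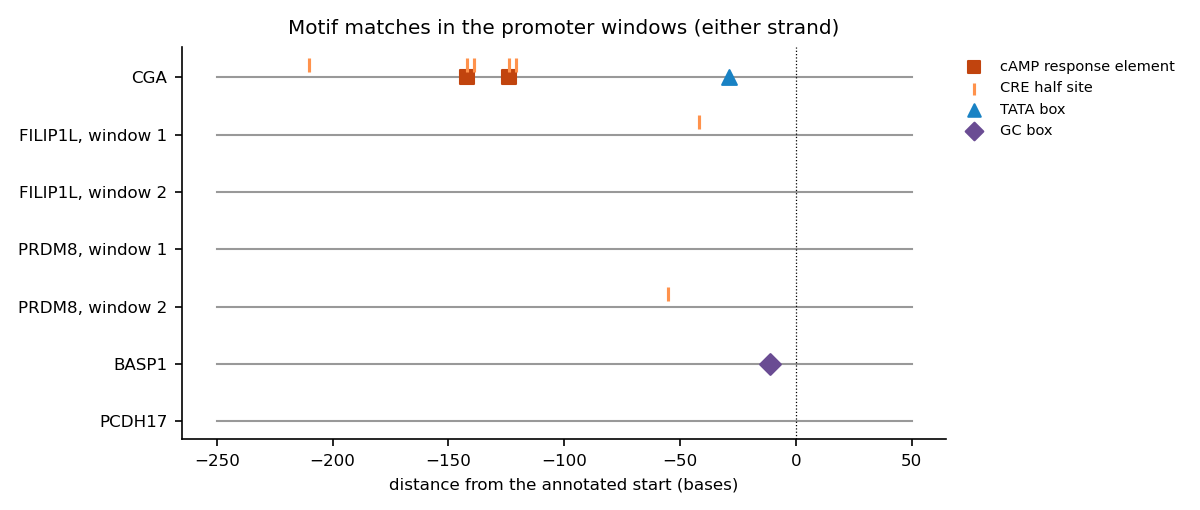
Matches to 4 motifs on either strand in the 7 promoter windows of the 5 genes, with 1 line per window, short upright marks for the core, and the distance of the first base of each match from the annotated start on the x axis. The CGA line carries both whole cAMP response elements and the TATA box, at -142, -124 and -29.

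CGA (ENSG00000135346; GENCODE 29 on GRCh38, chr6:87085498-87095406, minus strand) was close to unread outside libraries 10, 12, 14 and 16. Its counts there were 56, 55, 25 and 133 (17.1, 16.98, 7.997 and 20.9 CPM), against 1, 2, 0 and 2 in libraries 11, 13, 15 and 17 (0.168, 0.338, 0 and 0.443 CPM). The sets did not overlap, and library 14 was the lowest of its set. Summed over each set, 269 counts stood against 5, a 70.2-fold ratio of CPM. It is given with no interval, since CGA was chosen on this contrast.

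The 4 libraries labelled HEK293T ATM KO counted CGA at 7, 4, 1 and 5 (1.90, 1.21, 0.319 and 1.71 CPM) and the HEK293T DMSO libraries 22 to 25 at 4, 5, 3 and 5 (1.196, 1.43, 0.752 and 1.48 CPM). These ranges overlapped (log2 fold change 0.17, SE 0.53, adjusted p = 0.994). In the U2OS profile, CGA had 1 count in library 8, 1 in library 5 and 0 in the other 14 libraries, where 3 counts would equal between 0.516 and 2.43 CPM. Against the HEK293T DMSO libraries, with 17 counts in all, the U2OS DMSO libraries were at least 5.47-fold lower, with the floor taken as 3 counts over the group (adjusted p = 5.59e-04). Fewer cells that carry a transcript and less transcript per cell cannot be told apart in bulk RNA, for CGA and for the other 4 genes.

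The hormone partners of CGA were hardly counted. Of 14 other genes for glycoprotein hormone subunits and their receptors, the only one with enough counts to be fitted in any of the 5 comparisons was GPHA2, an alpha subunit related to CGA, with 13 counts in libraries 10, 12, 14 and 16 and 8 in 11, 13, 15 and 17 (adjusted p = 0.276).

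FILIP1L (ENSG00000168386; chr3:99830141-100114513, minus strand) had counts of 50, 69, 50 and 145 in libraries 10, 12, 14 and 16 (15.3, 21.3, 15.99 and 22.8 CPM). Libraries 11, 13, 15 and 17 had 4, 4, 6 and 9 (0.674, 0.677, 1.33 and 1.99 CPM). The sets were far apart, with a 16.5-fold difference in the fit (log2 fold change 4.04, SE 0.28). The gene lies within CMSS1 on the opposite strand, and whether the counting used strand is not stated, which leaves its counts uncertain. CMSS1 itself ran the other way, from 75.6 to 103 CPM in libraries 10, 12, 14 and 16 and from 131 to 174 CPM in 11, 13, 15 and 17.

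FILIP1L had counts of 8, 2, 6 and 2 in libraries 18 to 21 (2.17, 0.603, 1.92 and 0.685 CPM) and 3, 8, 6 and 6 in libraries 22 to 25 (0.897, 2.28, 1.503 and 1.78 CPM), which overlapped (log2 fold change -0.17, SE 0.50, adjusted p = 0.993). Every library of U2OS profile had at most 5 counts of it. U2OS CPT had 0, 2, 1 and 0 counts and U2OS DMSO 0, 0, 0 and 1, too few to be fitted. The HEK293T DMSO libraries held 23 counts against this 1 count, a ratio of 22.2 with an exact 95% interval of 3.61 to 915 (adjusted p = 4.38e-04). FILIP1, its nearest relative, was called in U2OS CPT against DMSO with 13 counts against 1 (adjusted p = 0.00744), and was higher in libraries 10, 12, 14 and 16 than in 11, 13, 15 and 17 by 2.50 on the log2 scale, with 164 counts against 36.

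PRDM8 (ENSG00000152784; chr4:80183879-80204329, plus strand) was counted in all 32 libraries. Libraries 10, 12, 14 and 16 had 22.04, 24.4, 15.7 and 18.7 CPM (49 to 119 counts) and libraries 11, 13, 15 and 17 had 2.86, 2.03, 1.78 and 2.22 CPM (8 to 17 counts). The sets did not overlap, and the fitted difference was 8.71-fold (log2 fold change 3.12, SE 0.23). In the other 24 libraries it stayed between 0.865 and 4.45 CPM.

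The comparisons other than the contrast on which PRDM8 was chosen gave no call. U2OS CPT had 1.77, 2.48, 4.16 and 1.87 CPM and U2OS DMSO 1.54, 3.44, 2.34 and 2.40 CPM (log2 fold change 0.23, 95% interval -0.54 to 1.00, adjusted p = 0.713). Libraries 2, 4, 6 and 8, labelled HEK293T CPT with a U2OS profile, had 2.43, 3.37, 4.34 and 2.41 CPM, all above the 1.41, 0.865, 1.37 and 1.91 CPM of libraries 1, 3, 5 and 7. These were 3 to 25 counts against 2 to 7, and the difference of 1.13 on the log2 scale (SE 0.47) missed the threshold (adjusted p = 0.101). It passed without library 8 (log2 fold change 1.36, adjusted p = 0.0402) and in the fit of all 32 libraries (1.15, adjusted p = 0.0444), and adjusted p ran from 0.0402 to 0.418 over all alternatives. Libraries 18 to 21 overlapped libraries 22 to 25, with 2.71 to 4.45 against 3.26 to 4.26 CPM (adjusted p = 0.995), as did U2OS DMSO (log2 fold change -0.37, SE 0.34, adjusted p = 0.353).

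Other PR domain genes moved in no shared direction with PRDM8. In libraries 10, 12, 14 and 16 against 11, 13, 15 and 17, 13 of 15 were fitted. Of all genes, 9.52% were called higher there and 4.45% lower. PRDM1, a transcriptional repressor that acts in lymphocyte and germ cell development, was higher (log2 fold change 2.47, 24 counts against 5). PRDM13, a factor of spinal cord and retinal neurons, was lower (-1.77). BHLHE22, the partner of PRDM8, was also lower there (-1.70). In U2OS CPT, PRDM16 rose (1.49) and PRDM1 fell (-2.36) among 10 fitted, where 7.97% of all genes were called higher and 5.5% lower.

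BASP1 (ENSG00000176788; chr5:17065598-17276843, plus strand) had 60.01, 61.7, 75.8 and 93.7 CPM in libraries 10, 12, 14 and 16 and 4.38, 6.26, 8.22 and 7.54 CPM in libraries 11, 13, 15 and 17. The lowest of the first set, with 196 counts, was far above the highest of the second, with 37, and the fitted difference was 11.05-fold (log2 fold change 3.47, SE 0.19). Its antisense partner BASP1-AS1 had at most 2 counts in any library.

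BASP1 was the gene of the 5 that was called lower in libraries 2, 4, 6 and 8 than in 1, 3, 5 and 7. Its counts were 0, 0, 2 and 8 (0, 0, 0.347 and 1.37 CPM) against 4, 13, 19 and 29 (2.82, 5.62, 5.20 and 7.91 CPM), with no overlap. Over the sets this was 10 counts against 65, and the ratio of CPM was 8.76 with an exact 95% interval of 4.47 to 19.1. The floor of 3 counts equals 2.43 CPM in library 2, 1.44 CPM in library 4 and 2.12 CPM in library 1. Libraries 2 and 4 thus lay under the floor and library 1 just above it. The edgeR fit gave a log2 fold change of -3.10 (SE 0.49, adjusted p = 3.90e-06), and -3.23 without library 1 (adjusted p = 2.25e-05). Without library 8, which held 8 of the 10 counts, it was -4.47 (adjusted p = 2.21e-07), and under the filterByExpr filter BASP1 had too few counts to be fitted. In this comparison 5.23% of 18591 genes fitted were called in either direction, and BASP1 was 1 of the 4 fitted here.

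BASP1 was higher in the U2OS DMSO libraries 30 to 33 than in HEK293T DMSO libraries 22 to 25 and was not called in U2OS CPT. The other 8 libraries of U2OS profile lay lower, with medians of 5.41 CPM in 1, 3, 5 and 7 and 0.174 CPM in 2, 4, 6 and 8, against 8.18 CPM in libraries 22 to 25. U2OS DMSO had 17.3, 15.1, 20.5 and 25.95 CPM, all above the 8.08, 8.28, 6.76 and 8.29 CPM of HEK293T DMSO libraries 22 to 25 (log2 fold change 1.58, SE 0.20, adjusted p = 2.73e-08). Between these lines 39.9% of genes were called, among them CGA, FILIP1L and BASP1. U2OS CPT had 13.2, 15.8, 14.2 and 16.5 CPM, which overlapped U2OS DMSO (log2 fold change -0.26, 95% interval -0.62 to 0.11, adjusted p = 0.322). Libraries 18 to 21 had 8.41, 7.83, 4.15 and 4.80 CPM (log2 fold change against libraries 22 to 25 of -0.22, SE 0.24, adjusted p = 0.963).

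PCDH17 (ENSG00000118946; chr13:57631810-57729311, plus strand) was the only one of the 5 called in U2OS CPT against U2OS DMSO. U2OS CPT had 23.5, 25.4, 25.6 and 28.1 CPM (74 to 90 counts) and U2OS DMSO 14.5, 15.1, 7.91 and 12.5 CPM (27 to 52 counts). The groups did not overlap, library 32 was the lowest, and PCDH17 was 2.32-fold higher (log2 fold change 1.21, 95% interval 0.88 to 1.55, adjusted p = 1.34e-06). Of 19080 genes fitted, 13.5% were called in this comparison, and 1 of the 3 fitted here. Leaving out each library in turn kept the log2 fold change between 1.05 and 1.29. With PCDH17, summed U2OS markers were higher in CPT (2432 to 2554 against 1690 to 2103 CPM, 4 of 10 called) and mitochondrial genes took 30.5 to 32.3% of counts against 20.6 to 26.8%, and their part in its level was not tested.

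PCDH17 was high in the same libraries as the other 4 genes. Libraries 10, 12, 14 and 16 had 88.2, 93.8, 76.1 and 106 CPM (238 to 676 counts), and libraries 11, 13, 15 and 17 had 11.3, 11.3, 12.2 and 13.7 CPM (55 to 67 counts). They did not overlap, with a 7.42-fold fitted difference (log2 fold change 2.89, SE 0.14). The comparison of libraries 2, 4, 6 and 8, with 22.7, 25.98, 28.3 and 25.8 CPM, and libraries 1, 3, 5 and 7, with 15.5, 21.6, 22.4 and 22.6 CPM, gave no call although the sets only just parted (log2 fold change 0.28, SE 0.18, adjusted p = 0.350). Libraries 18 to 21 overlapped libraries 22 to 25, with 15.01 to 23.9 against 14.3 to 21.03 CPM (log2 fold change 0.29, SE 0.17, adjusted p = 0.917), and U2OS DMSO overlapped HEK293T DMSO (-0.21, SE 0.19, adjusted p = 0.336).

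**Figure D3:**
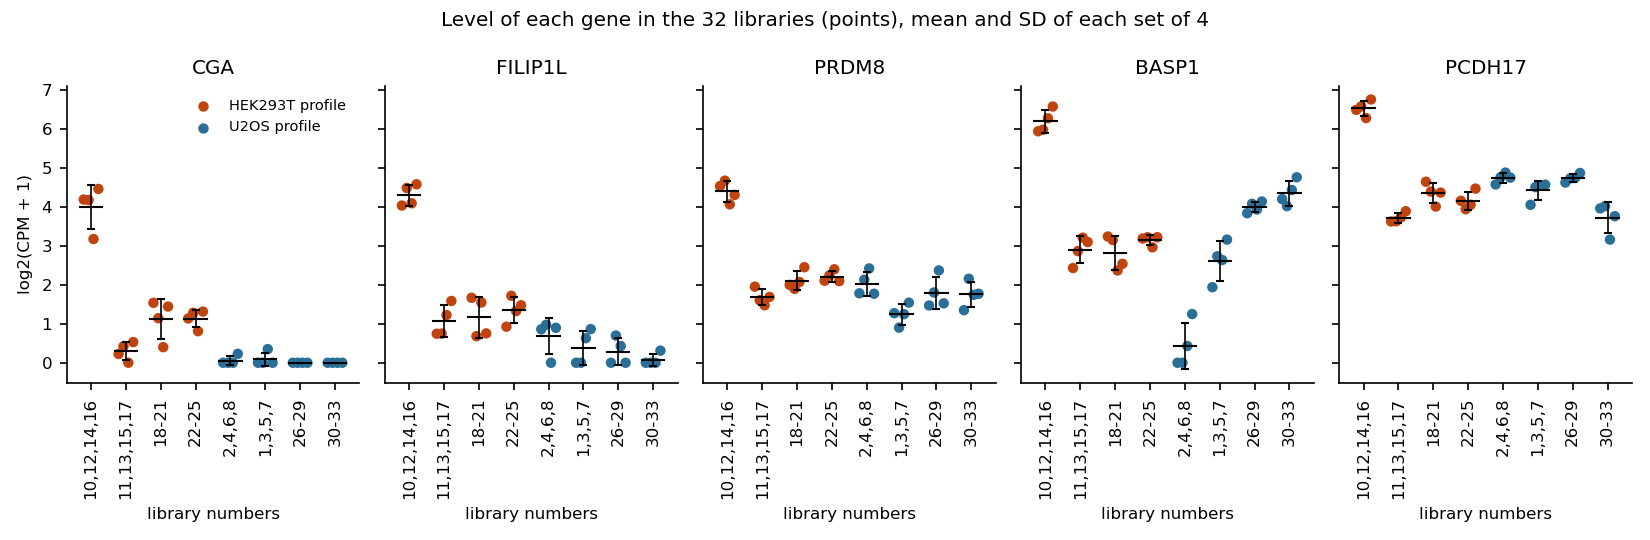
Level of each gene as log2(CPM + 1) in the 32 libraries (points) by library numbers, colored by profile, with the mean and SD of each set of 4 in black. For each gene the 4 points of libraries 10, 12, 14 and 16 lie above every other point, and in U2OS CPT (26 to 29) only PCDH17 lies clear above DMSO (30 to 33).

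Ordered by their median CPM over the 8 sets of 4, all 5 genes were highest in libraries 10, 12, 14 and 16, with no overlap with the next set. That place follows from the choice of the genes with regard to libraries 11, 13, 15 and 17. Earlier results of these data were also known at the choice, so the place over the other sets is described and was not tested. The next set down was libraries 18 to 21 for CGA (median 1.46 CPM), 22 to 25 for FILIP1L (1.64 CPM) and PRDM8 (3.50 CPM), U2OS DMSO for BASP1 (18.9 CPM), and 2, 4, 6 and 8 for PCDH17 (25.9 CPM). Below the top, every neighboring pair of sets overlapped for FILIP1L and PRDM8. For CGA the ranges parted once more, between libraries 22 to 25 and libraries 11, 13, 15 and 17. For BASP1 they parted between U2OS CPT and HEK293T DMSO libraries 22 to 25, and between libraries 1, 3, 5 and 7 and libraries 2, 4, 6 and 8. For PCDH17 they parted between U2OS CPT and libraries 1, 3, 5 and 7.

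Without library 17, the fitted log2 fold changes in libraries 10, 12, 14 and 16 against 11, 13 and 15, which compare the labels U2OS ATM KO and U2OS WT, were 6.22 for CGA, 4.39 for FILIP1L, 3.10 for PRDM8, 3.52 for BASP1 and 2.94 for PCDH17. Leaving out any 1 of the 8 libraries kept them within 5.56 to 6.22 for CGA and 2.81 to 2.97 for PCDH17. In this contrast 9.52% of 19464 genes fitted were called higher, and 4.45% lower, and the 5 genes are by their choice among the first.

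**Figure D4:**
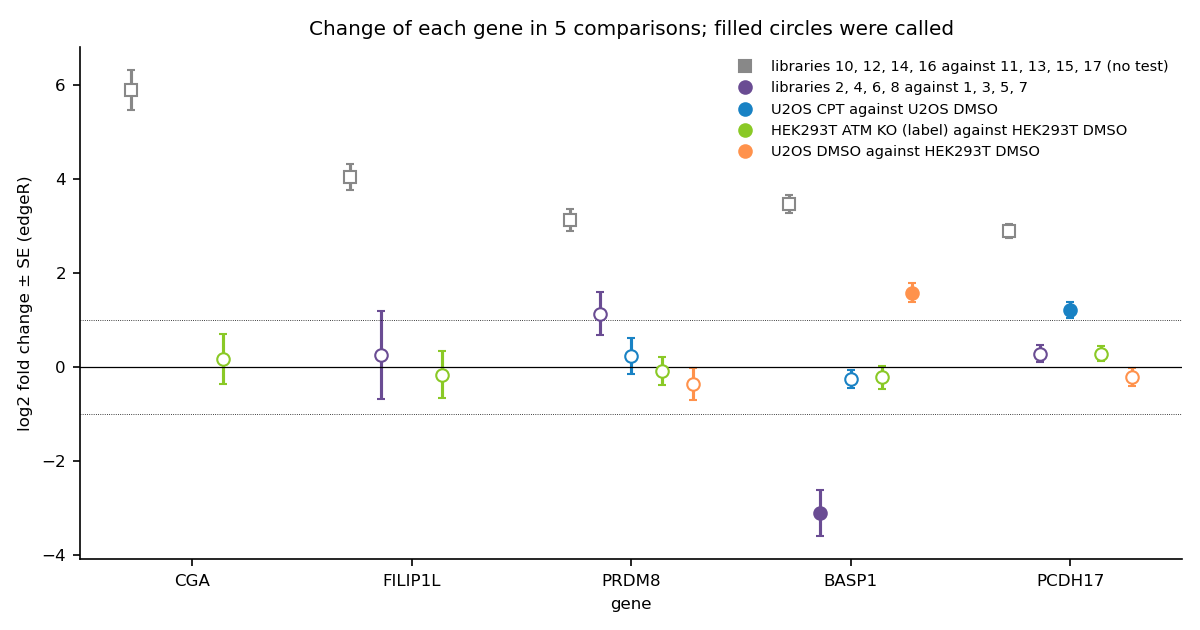
Fitted log2 fold change with its SE for each gene in 5 comparisons; squares are the contrast on which the genes were chosen and carry no test, and filled circles were called in a test. CGA and FILIP1L are left out of U2OS DMSO against HEK293T DMSO, where U2OS libraries had 0 or 1 counts, and CGA of the comparisons where it could not be fitted. The filled circles are BASP1 at -3.10 and 1.58 and PCDH17 at 1.21.

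None of the 5 genes was called between the libraries labelled HEK293T ATM KO and HEK293T DMSO, and the share of all genes called was 0%. Of 18413 genes fitted with edgeR's quasi-likelihood test, 1017 had an unadjusted p under 0.05, and the likelihood ratio test called 2. ATM itself had 54.5, 55.7, 74.1 and 64.4 CPM in libraries 18 to 21 and 72.4, 82.0, 58.9 and 57.8 CPM in libraries 22 to 25 (adjusted p = 0.977). The 3′ end of a transcript does not check a CRISPR/Cas9 change elsewhere in the gene. HEK293T DMSO libraries 22 to 25 and the U2OS DMSO libraries each serve in 2 of these comparisons.

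The change of BASP1 differed between 2 comparisons in U2OS-profile libraries. Its log2 change in libraries 2, 4, 6 and 8 against 1, 3, 5 and 7 minus that in U2OS CPT against DMSO was -2.84 (SE 0.50, adjusted p = 1.15e-05), a test added after the data were seen. The same difference was -0.93 for PCDH17 (SE 0.25, adjusted p = 0.00481) and 0.91 for PRDM8 (SE 0.60, adjusted p = 0.333). By this test 17.7% of 20539 genes had an adjusted p under 0.05.

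Transcripts of the p53 pathway, which reacts to DNA damage, were read alongside. CDKN1A, the p53-driven inhibitor of the cell cycle, had 121, 149, 125 and 228 CPM in libraries 10, 12, 14 and 16 and 29.6, 19.5, 56.9 and 32.4 CPM in 11, 13, 15 and 17 (log2 fold change 2.17). MDM2, which targets p53 for breakdown, was higher by 1.14 on the log2 scale, and 5 of 16 p53 targets were called higher, against 9.52% of all genes. In U2OS CPT 14 of 16 were called higher, against 7.97% of all genes, CDKN1A by 2.24 on the log2 scale, where PCDH17 rose and CGA and FILIP1L stayed at 0 to 2 counts a library. In libraries 2, 4, 6 and 8 only GDF15 of the 16 was called (log2 fold change 1.25), a share near the 5.23% of all genes called, and in the libraries labelled HEK293T ATM KO none was.

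Against libraries 11, 13, 15 and 17 only, some markers of the other line and mitochondrial reads were higher along with the 5 genes. Of 9 U2OS markers fitted in libraries 10, 12, 14 and 16 against 11, 13, 15 and 17, CD44, ANXA1 and LGALS1 were called higher, and their list summed to between 204 and 265 CPM against 186 to 197 CPM. HEK293T markers summed to between 1312 and 1527 CPM against 1445 to 1855 CPM, with none of 8 called. In the U2OS DMSO libraries 30 to 33, median CPM was 0 for CGA and FILIP1L, 2.37 for PRDM8, 18.9 for BASP1 and 13.5 for PCDH17. Genes of the mitochondrial genome took 13.7 to 18.8% of counts against 9.70 to 11.1%. Libraries 18 to 21 and 22 to 25, where all 5 genes lay lower, had summed U2OS markers of 210 to 318 and 214 to 312 CPM. Their mitochondrial shares were 15.7 to 19.6% and 14.4 to 17.4%. The part of the other line or of mitochondrial reads in the levels of the 5 genes was not tested.

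Related genes were read from lists of families and functions, without the 5 genes. In libraries 10, 12, 14 and 16 against 11, 13, 15 and 17, 4 of 8 fitted protocadherins outside the gene clusters were higher and none lower, with PCDH8 (log2 fold change 3.49, 31 counts against 3), PCDH19 (2.36) and PCDH9 (1.96) in front. The median of the list was 1.33, against 0.04 over all genes fitted, of which 9.52% were called higher and 4.45% lower. Of 16 hormone and secretory granule genes, 9 were higher, led by VGF, a granule peptide precursor (3.61), and the granins SCG2 (2.81) and SCG3 (2.62), and 2 were lower, the inhibin subunit INHBE (-3.79) and STC2 (-1.81). The median of that list was 1.59.

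Growth-cone and axon genes, the company of BASP1, went both ways in that contrast. Of 21 fitted, 6 were higher, led by the microtubule protein MAP2 (log2 fold change 3.79), the adhesion molecule L1CAM (3.52) and the tubulin TUBB3 (2.91), and 2 were lower, MAPT (-1.25) and GPM6A (-1.01), with a median of 0.33. Among neuronal transcription factors, SCRT1 was higher (3.01, 16 counts against 2), and MYT1 (-2.05) and BHLHE22 were lower.

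The same lists read otherwise in U2OS CPT. Here 7.97% of all genes were called higher and 5.5% lower. Of 7 protocadherins, PCDH7 (1.30) and PCDH11X (1.01) rose with PCDH17, while PCDH18 (-2.30) and PCDH1 (-1.14) fell. Of 20 growth-cone genes, 3 rose, among them the microtubule regulator STMN2 (4.41) and DCX (6 counts against 0), and 6 fell, led by MAPT (-1.96) and NCAM1 (-1.80), and the median was -0.69. Hormone and granule genes counted 6 higher, led by GAST (9 counts against 0), CHGA (2.32) and INHBA (1.78), and 2 lower, the protease PCSK2 (-3.48) and STC1 (-1.87), of 15. None of 6 neuronal transcription factors was called.

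In libraries 2, 4, 6 and 8 against 1, 3, 5 and 7, where BASP1 was lower, the growth-cone genes STMN2 (-2.52) and DPYSL3 (-1.67) were lower too and MAP2 was higher (1.99), of 20 fitted, where 5.23% of all genes were called either way. PCDH18 (-1.47) and PCDH7 (-1.06) were lower among 8 protocadherins, PRDM1 was lower (-1.17) among 9 PR domain genes, and the factor POU3F2 was higher (2.27) among 6. Of 14 hormone and granule genes 4 were lower, led by PCSK2 (-3.04), CHGB (-2.07) and INHBA (-2.03), and INHBB was higher, with 10 counts against 0.

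**Figure D5:**
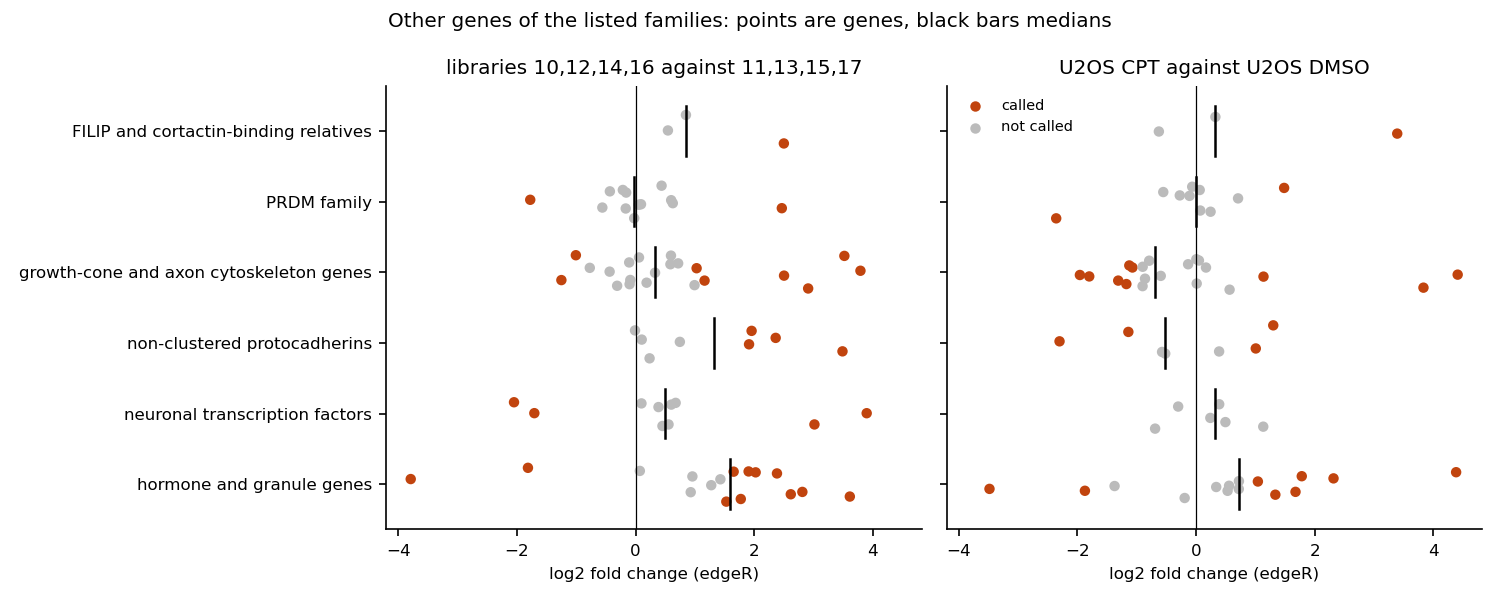
Fitted log2 fold changes of the related genes (points, with called genes in color and list medians as black bars) in libraries 10, 12, 14 and 16 against 11, 13, 15 and 17 (left) and in U2OS CPT against DMSO (right). Protocadherins and hormone genes have medians of 1.33 and 1.59 on the left, and growth-cone genes one of -0.69 on the right.

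Over the 16 libraries of HEK293T profile, Pearson's r of log2(CPM + 1) between any 2 of the 5 genes ran from 0.928 to 0.983, and over all 32 libraries from 0.479 (BASP1 and PCDH17) to 0.937 (CGA and FILIP1L). These values describe libraries that fall into separate sets, 4 of which are high for every gene by choice. Of 11490 genes with a mean of at least 5 CPM, those most like CGA over the 32 libraries were MSX2 (r = 0.892), WDR47 and KDM5B (0.892 each), and the same genes were most like FILIP1L (WDR47 0.909, MSX2 0.906 and KDM5B 0.897). For PRDM8 they were NXF1 (0.901), YPEL3 (0.888) and KDM5B (0.874), for PCDH17 TOR1AIP2 (0.878), SECISBP2L (0.844) and KDM5B (0.830). BASP1 stood with other genes, UBAP2 (0.905), SNAPC5 (0.862) and FASTKD5 (0.849).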

How the data were processed

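The authors counted UMI-tagged reads per gene on BlueBee (release 1.10.18) with Lexogen's FWD UMI workflow (release 2.3.1), and deposited the raw counts of 32 libraries. Aligner settings, annotation and genome build are not given in the sources used here. The 5 summary rows, with 10.9 to 40.6% of counts, and 92 spike-in rows (3 counts) were left out. A library held 1232674 to 6362433 counts on genes, so that 3 counts, the floor, equal 2.43 to 0.472 CPM. Floors and the exact intervals on ratios of counts cover counting error only. The 95% intervals on log2 fold changes come from the SE of the fit and a normal distribution. Symbols came from GENCODE 29 (56531 identifiers). Within the sets of libraries no pair agreed within sampling noise (chi-square per degree of freedom 1.83 or more), and pairs across sets were not compared.

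Groups were taken from the labels; sets of libraries came with the choice of genes. The 5 genes and all lists were chosen with earlier results of these data known. Each comparison was fitted over its 8 libraries with edgeR 4.0.16 in R 4.3.3 (TMM, quasi-likelihood test, Benjamini-Hochberg adjustment), for genes that exceeded 1 count in 2 or more of them. A gene was called where its adjusted p was under 0.05 and its log2 fold change beyond 1 either way. The SE was worked back from the test, as the size of the log2 fold change over the square root of the F statistic. In the contrast on which the 5 genes were chosen, it is a description only. Alternatives were RLE normalization, filterByExpr, no filter, the likelihood ratio test, DESeq2 1.42.0, all libraries in 1 fit, no cutoff on fold change, another set of controls and each library left out. The test of a difference between 2 changes was added later. Other genes named are up to 3 called per list and comparison with the largest change, the 3 most correlated with each gene, CDKN1A, MDM2 and ATM; list genes beyond the 3, CMSS1, BASP1-AS1, GPHA2 and called markers were named after their values were seen. 1 gene of the lists is not reported here. The fits were tested on simulated data. Promoter sequences came from RefSeq on GRCh38.p14.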

Additional observations from a re-analysis of the deposited data

Results flagged for a closer look

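BASP1 changed differently in libraries 2, 4, 6 and 8 against 1, 3, 5 and 7 than in U2OS CPT against U2OS DMSO, with a difference of the log2 changes of -2.84 (SE 0.50, adjusted p = 1.15e-05 by edgeR's interaction term). The 4 libraries 2, 4, 6 and 8 all lay below libraries 1, 3, 5 and 7, while the U2OS CPT and DMSO groups overlapped. PCDH17 also differed, with a difference of -0.93 (SE 0.25, adjusted p = 0.00481), where U2OS CPT lay above DMSO in 4 of 4 libraries and the other comparison was not called.

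A single library stood apart from the other 3 of its set for 2 genes. BASP1 in library 24 (HEK293T DMSO, 6.76 CPM) was below the 8.08 to 8.29 CPM of the other 3, a gap of 0.857 of the set's range. It held 27 counts, as did library 22, and the set ran from 27 to 29 counts. PCDH17 in library 1 (labelled U2OS WT, 15.5 CPM) was below the 21.6 to 22.6 CPM of libraries 3, 5 and 7, a gap of 0.859 of the range, and carried 22 counts at the second lowest depth of all libraries. With 26 sets of at least 20 counts checked, chance gives about 1 such flag in 20 sets.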

How the results depend on the processing

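In the 4 comparisons with a test, the values of the 5 genes kept their direction and side of the threshold in 223 of 235 refits, and most of these values were not called in the first place. BASP1 in libraries 2, 4, 6 and 8 could not be fitted under filterByExpr. PRDM8 passed the threshold in libraries 2, 4, 6 and 8 in the fit of all 32 libraries (1.15) and without library 8 (1.36). Of 10 refits that turned the sign of a value that was not called in either fit, PRDM8 in the libraries labelled HEK293T ATM KO gave 0.048 with libraries 17 and 22 to 25 as controls, and the others left out 1 library. Those ranges were, in the same comparison, -0.12 to 0.47 for CGA, -0.54 to 0.057 for FILIP1L and -0.21 to 0.0012 for PRDM8, in libraries 2, 4, 6 and 8 -0.31 to 0.88 for FILIP1L, and in U2OS CPT -0.072 to 0.39 for PRDM8. Left out in turn, each library moved BASP1 in libraries 2, 4, 6 and 8 between -4.47 and -2.80.

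Counts of called genes moved by over 1.5 times with the filterByExpr filter and with no cutoff on fold change, which gave 1652 and 6093 for U2OS CPT, 644 and 2411 for libraries 2, 4, 6 and 8, 5090 and 12259 between the lines under DMSO, and 1461 and 6788 for libraries 10, 12, 14 and 16. Fewer genes are tested under that filter. For the libraries labelled HEK293T ATM KO the count of 0 became 2 with no filter and with the likelihood ratio test, and 1 with all 32 libraries in 1 fit and with no cutoff, and lay between 0 and 14 when a library was left out, with 14 without library 21 and 1 without library 18. CGA and FILIP1L rest on 0 to 9 counts a library outside libraries 10, 12, 14 and 16, so a change of either there was not detectable at this depth unless large. No paired analysis was run because the labels do not give which libraries of the groups compared came from the same repeat.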
